A study of Mus musculus with 21 samples.

Results

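A set of 9 genes that define mature B cells, the transcription factors *Pax5*, *Ebf1*, *Bach2*, *Bcl6* and *Spib* and the surface receptors *Ms4a1*, *Cd22*, *Fcer2a* and *Cr2*, were followed in the RNA of IgA+ plasma cells (IgA+ PCs). Its members were taken by gene name from a table of read counts and are 9 of its 53801 genes. All 9 reached the total of 10 counts needed to enter the test, as did 20256 genes in all. The cells were sorted as CD138+ IgA+ from the lamina propria of the small intestine, in mice of the C57BL/6 strain, with 1 mouse per library and 21 libraries. The control mice were littermates without Cre that carried floxed *Arntl* (Mb1Cre-/- x Arntl fl/fl), 6 sampled at ZT0 and 6 at ZT12. The knockout mice (Mb1Cre x Arntl fl/fl) lacked Bmal1, the clock factor encoded by *Arntl*, in the B cell lineage, with 4 at ZT0 and 5 at ZT12. Zeitgeber time (ZT) counts hours from lights on, and the ages of the mice were not given in the sources used here. Both genotypes carried the floxed alleles, and the Cre sat in 1 copy of *Cd79a* (*Mb1*), which is used throughout the B lineage from its early stages, so deletion was not restricted to PCs. Peyer's patches, the site of most intestinal germinal centres, were removed from the tissue in most preparations. Mice were grouped by title: for 8 of the 9 knockout mice the label for genotype repeats that of the controls.

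Pax5 and Ebf1 install and hold the B cell programme, Bach2 and Bcl6 hold back plasma cell differentiation, Bcl6 in particular within germinal centres, and Spi-B is an ETS factor of the B cell receptor response. The receptors are CD20 (*Ms4a1*), the inhibitory lectin CD22, the low-affinity IgE receptor CD23 (*Fcer2a*) and the complement receptors CD21 and CD35 (*Cr2*). When a B cell becomes a plasma cell, Blimp-1 (*Prdm1*) shuts much of this programme down while Irf4 and Xbp1 drive secretion. What is left of these transcripts in a sorted plasma cell population is read here as a level per mouse, and in bulk samples fewer cells of a type and less RNA per cell cannot be told apart.

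Between 14471018 and 22785835 reads per library were counted on genes, of which immunoglobulin genes took 51.5% to 63.6%. Levels are given as CPM, counts scaled to library size with TMM factors, where 1 CPM stood for 12.5 to 22.4 counts. The plasma cell programme was high in every library, led by *Igha*, the IgA heavy chain, at a mean of 304430 CPM, with *Sdc1* (CD138) at 576 CPM and *Prdm1* at 279 CPM. *Arntl* counts cover the whole gene, not only the deleted exons, and read 6.83, 7.92 and 8.36 CPM (lowest, median, highest) in control mice at ZT0 and 4.00, 4.49 and 5.56 at ZT12. The knockout libraries read 4.08 to 6.47 CPM at ZT0 and 3.11 to 4.93 at ZT12, so the ranges were apart between genotypes at ZT0 and overlapped at ZT12. *Cd79a*, of which the Cre replaces 1 copy, separated all 9 knockout libraries (163 to 276 CPM) from all 12 control libraries (386 to 586 CPM), and *Nr1d2*, a clock gene driven by Bmal1, did the same (7.80 to 13.4 against 46.1 to 73.5 CPM). A total of 3 libraries stood apart before any member was compared. The summed level of 12 epithelial and M cell markers was 664 CPM in control ZT12 replicate 5 and 387 CPM in knockout ZT12 replicate 5, against a median of 76.2 over the 21 libraries, and control ZT12 replicate 2 had the largest immunoglobulin share at 63.6%.

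The 9 genes were low but not silent. Per kilobase of gene length, the scale on which levels of different genes may be set side by side, *Ebf1* led with a mean of 0.901 CPM per kb over the 21 libraries, followed by *Bach2* (0.410), *Ms4a1* (0.234), *Cr2* (0.176), *Cd22* (0.175), *Bcl6* (0.148), *Spib* (0.146), *Pax5* (0.0613) and *Fcer2a* (0.0547). The library ranges of all neighbours in this order overlapped, and *Cr2* and *Cd22*, like *Bcl6* and *Spib*, were almost level. Only *Ebf1* came near the middle of the transcriptome, with 50.6% of the genes tested lying below it, against 40.0% for *Bach2*, 16.6% for *Pax5* and 15.6% for *Fcer2a*. *Ebf1* was thus 14.7 times as abundant per kb as *Pax5*, the factor it works with in B cells. *Prdm1* in turn was 817 times as abundant per kb as *Pax5*, 339 times as *Bcl6* and 122 times as *Bach2*.

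**Figure D1:**
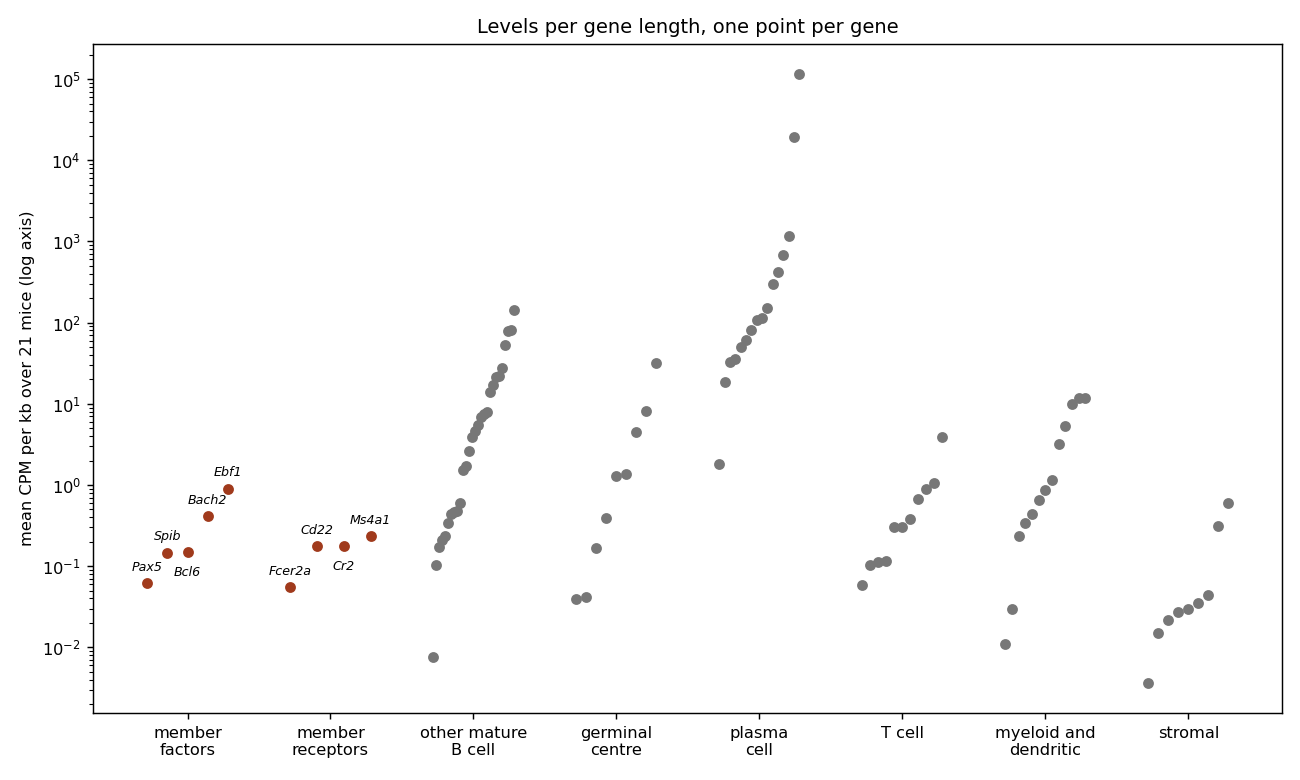
Mean CPM per kb over 21 mice on a log axis, one point per gene, for the 9 B cell identity genes (red, named) and 6 other gene lists (grey). The 16 plasma cell genes all lie above *Ebf1*, the highest of the 9 at 0.901 CPM per kb, while the 28 other mature B cell genes spread from 0.00765 to 142.

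The low levels of the 9 genes were not shared by all B cell genes. Of 28 other mature B cell genes, 18 were more abundant per kb than *Ebf1* and 3 lay under the median of the 9 genes (0.175 CPM per kb). *Cd79b*, the partner of *Cd79a* in the B cell receptor, stood at 79.8 CPM per kb. Toward the low end, *Ighd*, the IgD heavy chain, was at 0 counts in 2 of 21 libraries. The gate that the study shows for these cells in flow cytometry keeps live CD45+ cells and leaves out those with CD3, CD5, NK1.1, B220 or IgD. Whether the sort for RNA used every step of it is not given in the sources used here. Of 9 germinal centre genes, 5 exceeded *Ebf1* per kb, led by *Nuggc* (90.0 CPM), while *Rgs13* was at 0 counts in 11 libraries.

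The genes are given with the coordinates of GRCm38, which the table shares with GENCODE M21 for all 9 genes and for 52018 of the 53801 genes. Promoter windows from RefSeq (GRCm38.p6), from 250 bases before to shortly after each start site, were found for 8 of the 9 genes, 12 windows in all. *Bcl6* was the one member whose windows held CACGTG, the E-box through which Bmal1 and Clock bind, at position -60 from the start site, and the same window held GAGGAAG, an ETS core of the kind used by PU.1 and Spi-B, at position -191. Over all 32851 windows and both strands, CACGTG was present in 7.15% and GAGGAAG in 13.6%. GTGAAAG, letters found in known Blimp-1 sites, was in 4.24% of all windows and in 0 of the 12. None of these motifs shares bases with another here, and a match is only a match of letters. The 250 bases before a start site of *Bcl6*, shown because it carries the E-box, and of *Ebf1*, shown as the most abundant of the 9 genes, are given 5′ to 3′ on the gene's strand with motif letters in capitals. Each of these genes had a further window, which is not shown. The *Ebf1* bases shown lie inside the gene's own coordinates, which begin at 44617317.
Bcl6, chr16:23988853-23989102, minus strand: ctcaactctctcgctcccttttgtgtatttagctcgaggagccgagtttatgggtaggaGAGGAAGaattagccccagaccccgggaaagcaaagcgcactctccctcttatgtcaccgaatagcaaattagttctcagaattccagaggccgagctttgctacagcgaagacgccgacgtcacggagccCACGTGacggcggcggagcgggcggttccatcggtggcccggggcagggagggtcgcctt
Ebf1, chr11:44617850-44618099, plus strand: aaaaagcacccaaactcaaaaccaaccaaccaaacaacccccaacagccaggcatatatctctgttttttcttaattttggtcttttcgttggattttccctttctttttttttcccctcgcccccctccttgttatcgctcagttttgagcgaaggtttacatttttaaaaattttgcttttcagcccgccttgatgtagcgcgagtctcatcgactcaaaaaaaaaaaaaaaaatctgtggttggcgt

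*Ebf1* (chr11:44617317-45008091, plus strand) had the smallest p of the 9 genes for time of day in control mice, where its mean was lower at ZT12, but the difference did not pass the test over all genes. At ZT0 the control mice had 7.39, 12.0 and 17.1 CPM (lowest, median, highest), and at ZT12 they had 3.52, 5.65 and 10.8 CPM. The 4 knockout mice at ZT0 had 4.51, 13.8, 5.67 and 7.90 CPM, and the 5 at ZT12 had 9.86, 5.60, 8.81, 8.24 and 6.68 CPM. A total of 3 control mice at ZT0 lay above every other library, and the remaining control mice overlapped between times, as did the knockout mice. The control means were 12.5 ± 4.15 CPM at ZT0 and 6.43 ± 2.95 CPM at ZT12 (SD, n = 6 each). This fitted log2 fold change of -0.95 (SE 0.31) spans 0.334- to 0.807-fold at 95% (edgeR, unadjusted p = 0.0057, adjusted p = 0.119). DESeq2 called it (-0.93, adjusted p = 0.0242), as 1 of 1052 genes called. So did edgeR once control ZT12 replicate 1 was left out (-1.16, adjusted p = 0.0318), as 1 of 944 genes called, against 350 in the main fit. With the immunoglobulin share as a covariate it was -0.57 (adjusted p = 0.701, edgeR) and 0 genes were called. That share was 51.5% to 53.3% in control mice at ZT0 and 53.3% to 63.6% at ZT12, the highest value at ZT0 and the lowest at ZT12 being almost level, so it is in part confounded with the time of day. The table lists the libraries in 3 runs of 7 neighbouring columns, each run with all 4 groups, and what a run stands for is not given in the sources used here. The 3 highest libraries were the control ZT0 mice of the first run. Within the runs, the control means at ZT0 and ZT12 were 16.1 and 7.17 CPM in the first, 9.65 and 4.44 in the second, and 7.39 (1 mouse) and 7.69 in the third. With the run as a term, added after seeing the data, the fold change was -0.90 (adjusted p = 0.139, edgeR). At ZT0 the knockout mean was 7.96 ± 4.12 CPM (SD, n = 4). At ZT12 it was 7.84 ± 1.70 CPM (SD, n = 5), with a log2 fold change of -0.02 (SE 0.35). The difference between the genotypes in the effect of time was 0.92 (SE 0.47, adjusted p = 0.476 by edgeR), so a loss of the time difference without Bmal1 was not shown. Ordered by mean, control ZT0 stood above knockout ZT0 by 4.52 CPM, just over the larger SD of 4.15, and the neighbours below it differed by less than their SD.

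*Bach2* (chr4:32238804-32586108, plus strand), the repressor that keeps B cells from becoming plasma cells, was the second most abundant. Control mice ran from 1.30 through a median of 4.78 to 6.54 CPM at ZT0 and from 2.08 through 3.25 to 7.06 CPM at ZT12. The 4 knockout mice at ZT0 had 4.07, 2.74, 2.13 and 4.27 CPM, and the 5 at ZT12 had 4.50, 2.31, 6.46, 6.24 and 3.87 CPM. All groups overlapped, with log2 fold changes of -0.30 (SE 0.34) in control and 0.49 (SE 0.40) in knockout mice and a difference between them of 0.79 (adjusted p = 0.572, edgeR). Reads of the intronic transcript *Bach2it1* (278 counts over all libraries, against 1436 for *Bach2*) and of the antisense *Bach2os* (23 counts) lie within the locus. Strand alone would not separate *Bach2it1*, which lies on the same strand as *Bach2*, and the strand setting that bears on *Bach2os* is not stated.

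*Pax5* (chr4:44524757-44710487, minus strand), the gene that commits cells to the B lineage, was close to the detection limit, with 193 counts over all libraries. Control mice had 0.212, 0.519 and 0.917 CPM (lowest, median, highest) at ZT0 and 0, 0.196 and 1.48 CPM at ZT12. Knockout mice had 0.220, 0.319, 0.534 and 1.79 CPM at ZT0 and 0.247, 0, 0.941, 1.22 and 0.176 at ZT12. The signal was uneven between libraries. Knockout ZT0 replicate 4 had 36 counts (1.96 CPM of all counts, 95% Wilson limits 1.41 and 2.71) and control ZT12 replicate 3 had 24, together 31.1% of the 193, whereas control ZT12 replicate 2 and knockout ZT12 replicate 2 had 0. Its biological coefficient of variation was 0.914, above the 0.687 of the trend for genes of its level. Across the 9 genes, the 13 values of 0 among 189 allow up to 0.165 to 0.218 CPM, depending on the library, and like the Wilson limits these cover counting error only. The log2 fold changes were -0.19 (SE 0.81) in control and -0.49 (SE 0.92) in knockout mice, the latter turning to 0.51 without knockout ZT0 replicate 4. The control interval ran from 0.274- to 2.80-fold, and differences inside it were not detectable with this depth and spread between mice.

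*Bcl6* (chr16:23965052-23988852, minus strand), which represses *Prdm1* in germinal centre cells, had no difference past the test. Control mice had 0.648, 0.787 and 1.57 CPM at ZT0 and 0.223, 0.885 and 1.69 at ZT12 (lowest, median, highest). Knockout mice had 0.604, 0.829, 0.800 and 1.59 CPM at ZT0 and 1.11, 0.608, 1.41, 1.80 and 1.23 at ZT12. The groups overlapped throughout, and the log2 fold change was 0.01 in control mice (95% interval 0.557- to 1.81-fold) and 0.36 in knockout mice (0.652- to 2.51-fold).

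*Spib* (chr7:44525993-44532071, minus strand) had the highest fitted control value of the 9 genes. Its control levels were 0, 0.231 and 0.417 CPM at ZT0 and 0.268, 0.509 and 1.04 at ZT12. Knockout mice had 0, 0.510, 0.267 and 1.29 CPM at ZT0 and 0.185, 0, 0.672, 0.579 and 0.469 at ZT12. A total of 2 control mice at ZT12 fell within the ZT0 range and 4 lay above it. The control log2 fold change was 1.31 (SE 0.77, adjusted p = 0.373, edgeR), in knockout mice it was -0.45 (SE 0.86), and the difference between them was -1.77 (adjusted p = 0.57). Without knockout ZT0 replicate 4, which held 26 counts, the knockout value turned to 0.55.

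Among the receptors, *Cr2* (chr1:195136811-195176716, minus strand), like *Ms4a1* and *Fcer2a*, had lower means at ZT12 in both genotypes. Control mice had 1.30, 2.13 and 2.60 CPM at ZT0 and 0.0727, 1.24 and 1.63 at ZT12. Knockout mice had 1.70, 2.68, 0.800 and 1.69 CPM at ZT0 and 1.60, 0.913, 0.807, 1.09 and 0.234 at ZT12. At ZT0, 4 control mice lay above every control mouse at ZT12, and the lowest library of each ZT12 group was the one with high epithelial RNA, control ZT12 replicate 5 with 1 count and knockout ZT12 replicate 5 with 4. The log2 fold changes were -0.93 (SE 0.44, unadjusted p = 0.0432, adjusted p = 0.26) and -0.88 (SE 0.51, adjusted p = 0.66) by edgeR, and neither passed. Without those 2 libraries the control value was -0.69 (adjusted p = 0.288), and whether their epithelial RNA had a part in the difference was not tested.

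*Ms4a1* (chr19:11249675-11266241, minus strand) gave control levels of 1.27, 1.58 and 3.34 CPM at ZT0 and 0.436, 1.39 and 3.00 at ZT12. Knockout mice had 1.10, 1.85, 0.467 and 1.79 CPM at ZT0 and 0.678, 0.852, 0.941, 1.80 and 1.05 at ZT12. The groups overlapped, and the log2 fold changes of -0.30 (SE 0.41) and -0.29 (SE 0.48) were smaller than their errors.

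*Cd22* (chr7:30865402-30880342, minus strand) read 0.371, 0.818 and 1.04 CPM in control mice at ZT0 and 0, 1.03 and 1.88 CPM at ZT12. Knockout mice had 0.604, 0.574, 0.667 and 1.84 CPM at ZT0 and 0.863, 0.548, 1.21, 1.35 and 0.762 at ZT12. At ZT0, 3 knockout libraries lay close together and replicate 4 stood far above them. The log2 fold changes were 0.26 (SE 0.53) in control and 0.03 (SE 0.62) in knockout mice, and the latter was 0.60 without that replicate.

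*Fcer2a* (chr8:3681737-3694175, minus strand), an antigen of follicular B cells, was the rarest and gave the largest fitted fold change from the fewest reads. Control mice had 0.0597, 0.209 and 0.365 CPM at ZT0 and 0, 0.0447 and 0.615 at ZT12. Knockout mice had 0.220, 0.0638, 0.0667 and 0.845 CPM at ZT0, which are 4, 1, 1 and 17 counts. At ZT12 the 5 knockout mice had 0, 0, 0, 0 and 0.0586 CPM, a single count in all. These were the only groups of any of the 9 genes that did not overlap by time within a genotype, by a margin of 1 count against 1 count. Groups that did not overlap in this comparison were found for 2.63% of all genes tested. Pooled over mice, the ratio of ZT12 to ZT0 in knockout mice was 0.0374 (1 against 23 counts, exact 95% limits 0.000909 and 0.231), and 0.102 (1 against 6 counts, 0.00221 and 0.838) without knockout ZT0 replicate 4. These limits treat counts as independent and leave out the spread between mice. Fitted with that spread, the log2 fold change was -3.98 (SE 1.31, unadjusted p = 0.0054, adjusted p = 0.54, edgeR), and against control mice at ZT12 it was -3.16 (SE 1.27, adjusted p = 0.562).

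**Figure D2:**
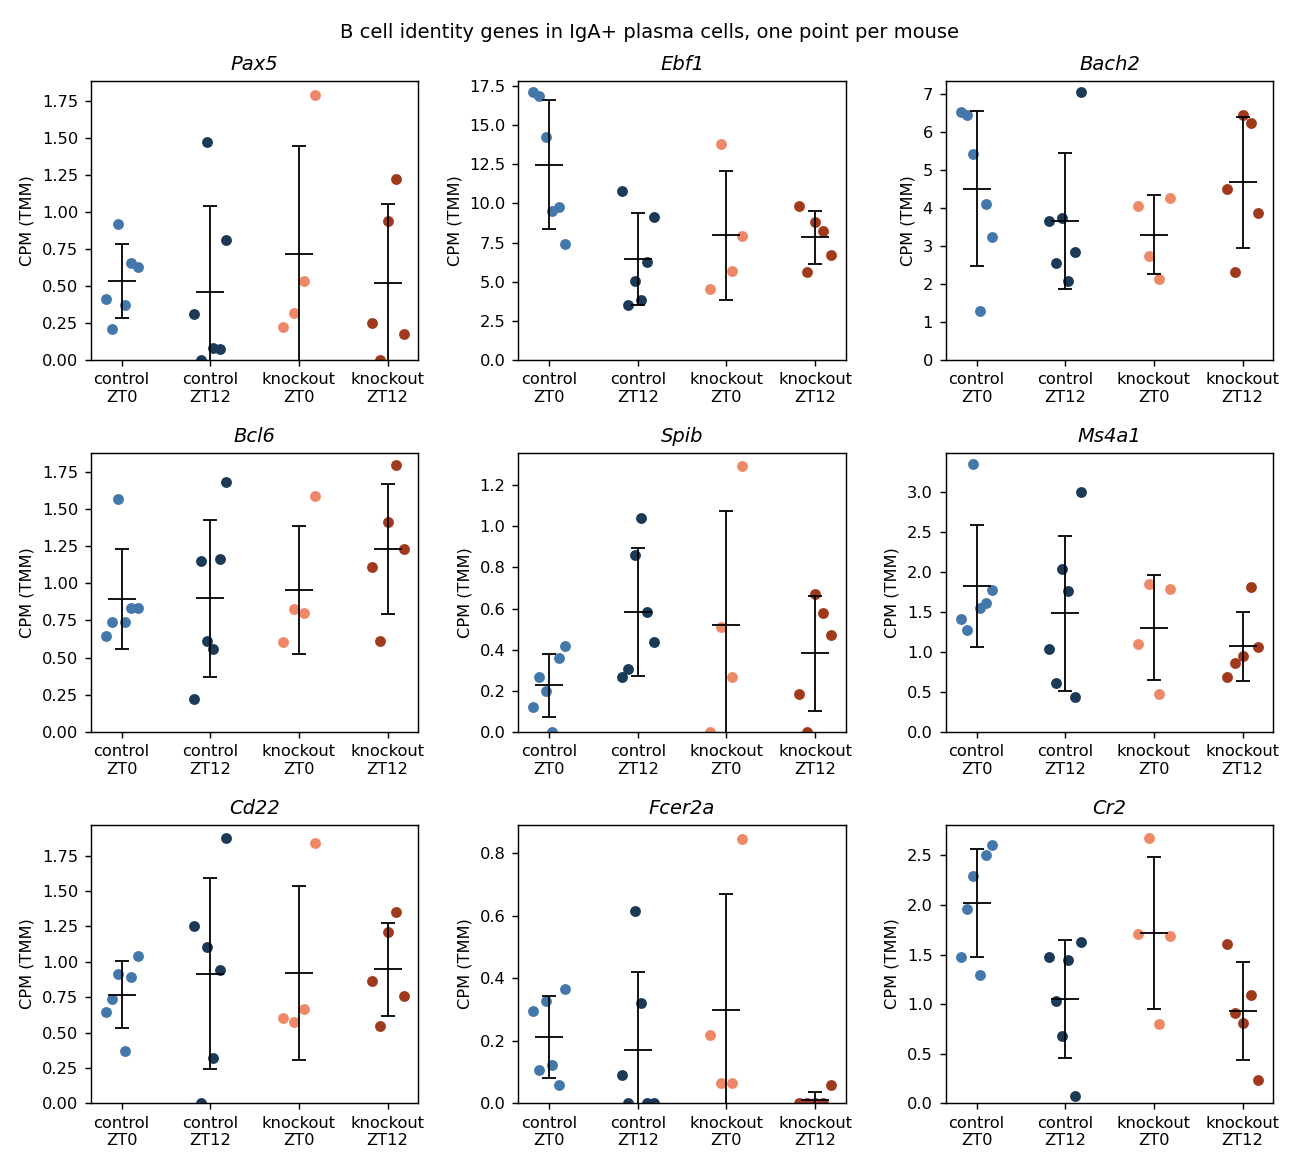
CPM of each gene in each mouse by genotype and ZT, with the group mean and SD (n = 6, 6, 4 and 5), where SD bars reaching below 0 are cut at the axis. *Ebf1* is highest in control mice at ZT0, and *Pax5*, *Ebf1*, *Ms4a1*, *Fcer2a* and *Cr2* have lower means at ZT12 in both genotypes. *Pax5*, *Spib*, *Cd22* and *Fcer2a* share a high point in knockout ZT0 replicate 4.

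The comparisons of the design ask whether expression in IgA+ PCs differs with time of day and whether this needs Bmal1 in the cells. By edgeR with Benjamini-Hochberg adjustment over all genes at 0.05, 0 of the 9 genes passed between ZT12 and ZT0 in control mice, where 1.73% of all genes did. In knockout mice 0 of 9 passed, with 0% of all genes, and in the test of the difference between genotypes 0 of 9 passed, again with 0%. Between genotypes, 0 of 9 passed at ZT0 (0.00987% of all genes) and 0 of 9 at ZT12 (0.0148%). At an unadjusted p under 0.05, *Ebf1* and *Cr2* were lower in control mice at ZT12 (2 of 9, against 8.86% of all genes lower), and 0 of 9 were higher (against 9.19%). *Fcer2a* alone met that limit in knockout mice (1 of 9 lower, against 4.09%), in the difference between genotypes (1 of 9, against 5.63% lower) and between genotypes at ZT12 (1 of 9, against 4.58% lower). No member met it between genotypes at ZT0, where 4.9% of all genes did. In control mice DESeq2 called 1052 genes, against 350 by edgeR, and *Ebf1* was 1 of them. DESeq2 called no other member that it gave an adjusted p. It gave none to *Pax5* and *Spib* in control mice, nor to *Fcer2a* in either effect of time, in the difference between genotypes and between genotypes at ZT12.

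The median log2 fold change of the 9 genes from ZT0 to ZT12 was -0.30 in control and -0.29 in knockout mice, against 0.01 over all genes tested in each, with 6 of 9 below 0 in both. Between genotypes it was 0.10 at ZT0 and 0.03 at ZT12, against -0.01 over all genes in each. The factor and receptor medians in control mice were -0.19 and -0.31. At ZT0 the log2 fold change of knockout against control mice was -0.65 for *Ebf1* (SE 0.34, adjusted p = 0.926, edgeR) and 1.17 for *Spib* (SE 0.83, adjusted p = 0.926), and the other 7 lay between these values. Neither passed, and without knockout ZT0 replicate 4 the *Spib* value was 0.16, while that of *Ebf1* ran from -1.04 to -0.46 with 1 library left out. At ZT12 the *Ebf1* difference was 0.27 (SE 0.32, adjusted p = 0.826). Comparisons that share a group of mice, such as these and the effects of time, are not independent of each other.

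**Figure D3:**
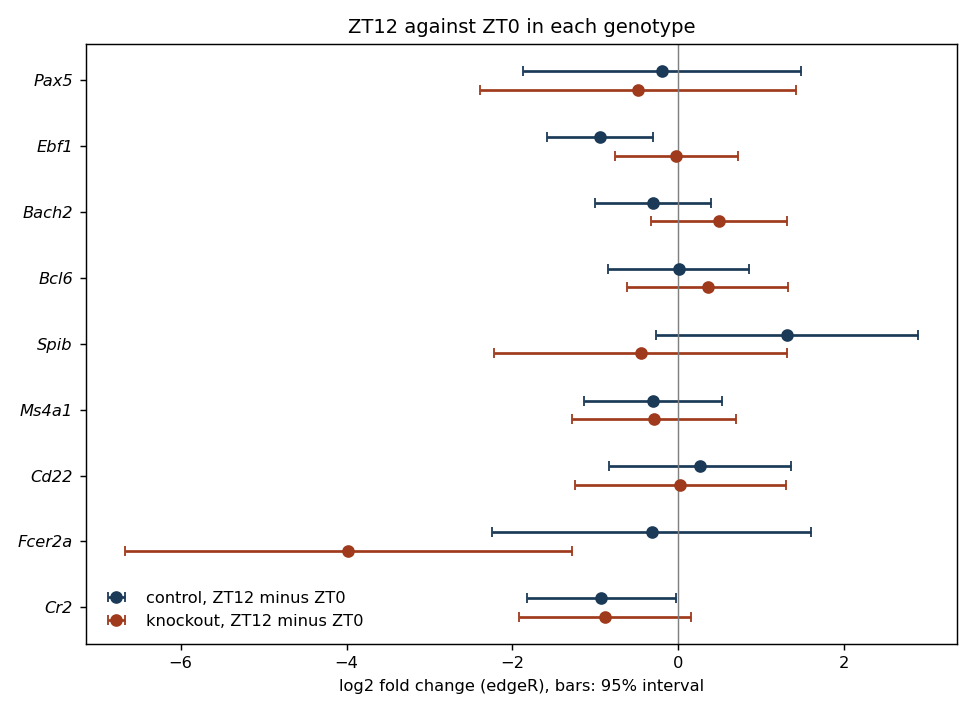
Fitted log2 fold change from ZT0 to ZT12 (points) with its 95% interval (bars) for each gene in control and knockout mice, from edgeR. The intervals of *Ebf1* and *Cr2* in control mice and of *Fcer2a* in knockout mice leave out 0, and 0 of the 9 genes passed the adjusted threshold in either genotype.

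For 8 of the 9 genes, the exception being *Ebf1*, groups next to each other in order of mean differed by less than the larger SD, and between mice of a group the 9 genes tended to vary together. With group means removed, 33 of the 36 pairs of genes had a positive Pearson r over the 21 libraries (median 0.334), from -0.183 to 0.732 for *Pax5* and *Cd22*, and 7 exceeded 0.5. All pairs share libraries, scaling and depth, and these values are a description. The mean deviation of the 9 genes (log2 scale) was highest in knockout ZT0 replicate 4 (0.86), control ZT12 replicate 6 (0.71), control ZT12 replicate 3 (0.57) and knockout ZT12 replicate 4 (0.56), and lowest in control ZT12 replicate 2 (-0.78) and knockout ZT12 replicate 2 (-0.74). Knockout ZT0 replicate 4 was the highest library of all 21 for *Pax5*, *Spib* and *Fcer2a*, and control ZT12 replicate 2, the library with the largest immunoglobulin share, was at 0 for *Pax5*, *Cd22* and *Fcer2a*. The summed level of the 9 genes ran from 9.18 to 29.2 CPM, with *Ebf1* and *Bach2* taken out from 2.92 to 10.8 CPM.

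**Figure D4:**
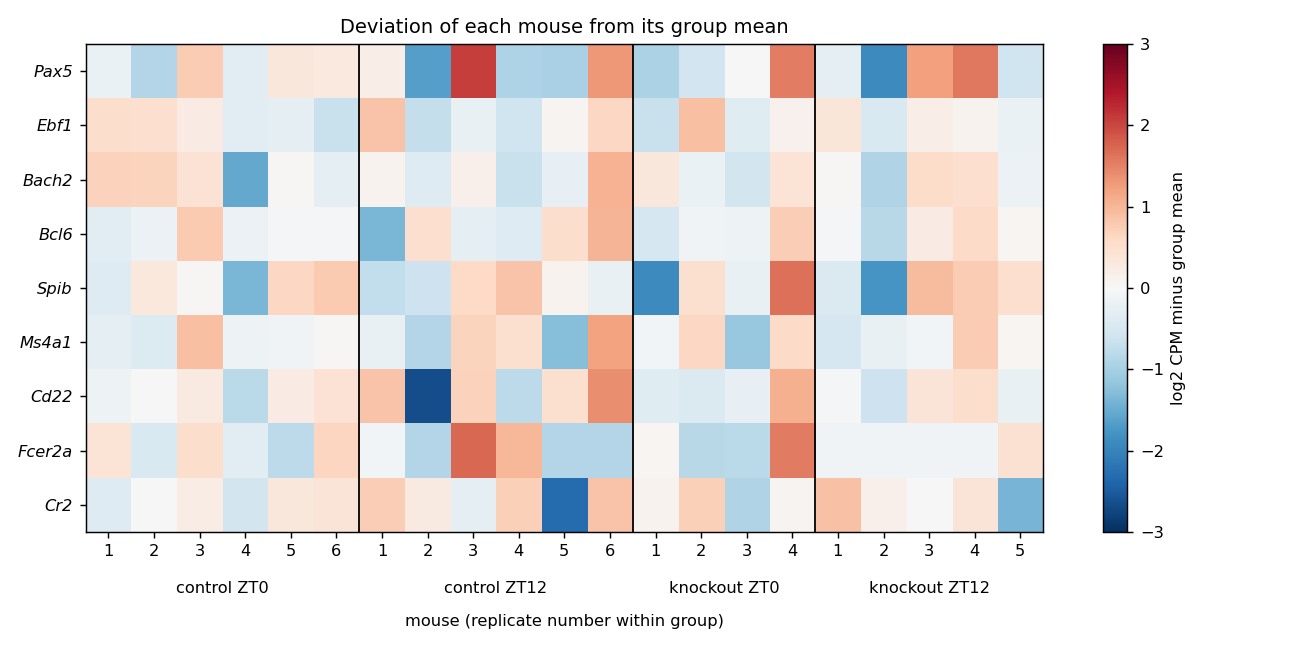
Log2 CPM of each gene in each mouse minus the mean of its group (colour scale from -3 to 3), with mice in columns by group. Columns tend to share a colour, with red in knockout ZT0 replicate 4 and control ZT12 replicate 6 and blue in replicate 2 of both ZT12 groups.

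T cell markers moved with this pattern in part, as did the myeloid markers, whose values are given below. Among the 10 genes most like the mean deviation, of 12676 with at least 10 counts per library on average, were *Gimap3* (r = 0.857 over 21 libraries), *Cxcr6* (0.822), *S1pr1* (0.806), *Il21r* (0.803), *Slc44a2* (0.797), *Igkv14-126* (0.789), *Fancm* (0.786), *Snx10* (0.773) and *Lrig1* (0.771), and without the 2 libraries farthest out the 10 kept r between 0.672 and 0.814. They were picked as the highest, so no test is given. Of 11 T cell markers, 8 were at 0 counts in at least 1 library, the CD3 chains *Cd3e*, *Cd3d* and *Cd3g* in 5, 9 and 3 libraries, and the most abundant was *Cd4* (15.5 CPM). The summed level of the 11 ran from 12.5 to 35.2 CPM, and without *Cd4* from 2.01 to 20.04 CPM. With *Cd4*, which alone made up much of the sum, it was 30.3 CPM in knockout ZT0 replicate 1 and 29.5 CPM in knockout ZT0 replicate 3, both above the median of 23.3 CPM, although the mean deviation of the 9 genes there was -0.44 and -0.48. Without *Cd4*, a split made after the values were seen, it was 19.1 CPM in knockout ZT0 replicate 4, 17.1 in knockout ZT12 replicate 4 and 15.9 in control ZT12 replicate 6, and 2.01 and 2.19 CPM in replicate 2 of the ZT12 control and knockout groups. It was also high at 20.04 CPM in knockout ZT12 replicate 3 and at 16.8 CPM in control ZT0 replicate 6, where the mean deviation of the 9 genes was 0.37 and 0.17. By contrast it was 5.23 CPM in control ZT12 replicate 3 and 5.11 CPM in control ZT0 replicate 3, under the median of 6.91 CPM, although the mean deviations there were 0.57 and 0.47. All 5 libraries with these high T cell sums stood in the third run of columns, where the other 2 had 4.51 and 6.91 CPM. Whether the sort for RNA left out CD3+ and CD5+ cells is not given in the sources used here. The part of other cells in these levels was not tested.

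For *Ebf1*, which stromal cells also express, the 9 stromal, endothelial and follicular dendritic cell markers summed to 2.06 to 6.74 CPM, led by the endothelial *Cdh5* (2.53 CPM), and the fibroblast gene *Pdgfra* and the follicular dendritic gene *Cxcl13* were at 0 counts in 14 and 17 libraries. In control mice the sum was 4.19 ± 1.43 CPM at ZT0 and 3.54 ± 1.53 CPM at ZT12 (SD, n = 6 each). The summed level of its 5 fibroblast genes (*Col1a1*, *Col1a2*, *Col3a1*, *Dcn* and *Pdgfra*), a group formed after their values were seen, was lower at ZT12 in control mice, as was the *Ebf1* mean, at 1.38 ± 0.971 against 0.453 ± 0.356 CPM (SD, n = 6 each), with overlapping ranges. *Col3a1* had means of 0.591 and 0.159 CPM, and *Pdgfra* was at 0.108 CPM at ZT0 and at 0 counts in all 6 mice at ZT12. The other 4 genes of the list had higher means at ZT12 in control mice, from 0.0560 to 0.0815 CPM for *Pdgfrb*, 0.0199 to 0.0512 for *Cxcl13*, 2.48 to 2.54 for *Cdh5* and 0.254 to 0.407 for *Madcam1*, so the 5 are those whose means were lower. In the 3 mice highest in *Ebf1* the fibroblast sum was 0.236, 1.22 and 0.917 CPM, and its highest value among control mice, 2.81 CPM, fell in control ZT0 replicate 6, the lowest of that group for *Ebf1*. In knockout mice it was 1.09 ± 1.02 CPM at ZT0 (SD, n = 4) and 1.39 ± 0.727 CPM at ZT12 (SD, n = 5). Whether the sort for RNA used the CD45 step is not given in the sources used here. The part of stromal and endothelial RNA in the *Ebf1* level was not tested. The 13 myeloid and dendritic markers summed to 23.7 to 121 CPM, led by *Csf1r* (15.6 CPM), with *Siglech* at 0 in 16 libraries. This sum was 99.7 CPM in knockout ZT0 replicate 4 and 114 CPM in control ZT12 replicate 6, where the mean deviation of the 9 genes was high. It was 23.7 CPM in control ZT12 replicate 2 and 44.2 and 32.2 CPM in knockout ZT0 replicates 1 and 3, where that was low. In control ZT0 it was higher in replicate 4 (94.9 CPM, mean deviation -0.62) than in replicate 3 (60.3 CPM, 0.47). Its highest value, 121 CPM, fell in control ZT12 replicate 1 (mean deviation 0.04), and knockout ZT12 replicate 1 had 109 CPM (-0.02). Knockout ZT12 replicate 2, among the lowest in mean deviation (-0.74), had 75.9 CPM, near the median of 78.8 CPM. The part of such cells was not tested. The 10 proliferation genes, led by *Mki67* (49.7 CPM), summed to 62.9 to 307 CPM. None of the other lists held a gene that passed in any of the 5 comparisons. The 28 other mature B cell genes, led by *Ighm* (268 CPM), summed to 1402.6 CPM in control ZT12 replicate 2 and to 1445.2 and 1385.9 CPM in knockout ZT0 replicates 1 and 3. The sum was 1095.7 CPM in control ZT12 replicate 6 and 1159.5 CPM in knockout ZT0 replicate 4, but 1357.2 CPM in control ZT12 replicate 3 (mean deviation 0.57). *Ighm* alone ran from 112 to 576 CPM over the libraries, against 1037.9 to 1445.2 CPM for the whole sum. The sum was not computed without it. Among these 28 genes, the median log2 fold change was -0.14 in control and -0.02 in knockout mice, and 3 were higher and 4 lower in control mice at an unadjusted p under 0.05 by edgeR, against 9.19% of all genes higher and 8.86% lower. Of 16 plasma cell genes, 4 were higher and 2 lower at that limit in control mice, and their median was 0.04. The 9 germinal centre genes had 1 in each direction and a median of 0.05.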

How the data were processed

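Poly-A RNA of IgA+ PCs was sequenced with paired reads in 21 libraries. The authors deposited raw, unnormalized counts per gene. Aligner, counter and strand setting are not given in the sources used here, and the processing notes name DESeq2, which the study ran on these counts. Genes with fewer than 10 counts in total were left out. TMM factors and robust quasi-likelihood fits to the means of the 4 groups came from edgeR 4.0.16 in R 4.3.3, with p-values adjusted by Benjamini-Hochberg over 20256 genes. Results were recomputed with DESeq2 1.42.0 and other scalings, filters and libraries left out. The code was tested on simulated data. A gene called is one with adjusted p under 0.05. All 9 genes are named whatever they show, and from each other list its most abundant gene, any gene called and defining markers. Genes most like the 9 are the 10 with the highest r, of which 1 is not reported here. The 9 genes, the lists and the tests were chosen with earlier results of these data known. *Ighd*, *Cd79b* and *Rgs13* were picked after their values were seen. Depth limits the rare genes most, since 1 count was worth as much as the whole signal of *Fcer2a* in some libraries. Within groups, all 46 pairs of libraries differed by more than sampling noise (chi-square per gene 29.5 to 242). P-values measure the spread between these mice.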

Additional observations from a re-analysis of the deposited data

Results flagged for a closer look

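Within each of the 4 groups, the highest or lowest mouse was compared with the others by Dixon's gap for each of the 9 genes. Of 36 sets of values 5 stood out. Chance gives about 1 in 20 for normally distributed values, and this rate may not hold for CPM of low counts, which were compared without a log. It does not hold for the few counts of *Fcer2a*, where 1 count against 0 in all others stands out by construction. *Bach2* in control ZT12 replicate 6 was 7.06 CPM (113 counts), against 2.08 to 3.75 in the other 5 mice. *Bcl6* in control ZT0 replicate 3 was 1.57 CPM (24 counts), against 0.648 to 0.835. *Ms4a1* in the same mouse was 3.34 CPM (51 counts), against 1.27 to 1.77. *Cd22* in knockout ZT0 replicate 4 was 1.84 CPM (37 counts), against 0.574 to 0.667. *Fcer2a* in knockout ZT12 replicate 5 was 0.0586 CPM, which is 1 count against 0 in the other 4 mice.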

How the results depend on the processing

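Of the 9 genes, 0 were called in any comparison that each alternative gave, with the exception of 1 (*Ebf1*) in control mice with DESeq2 (log2 fold change -0.933) or without control ZT12 replicate 1 (-1.16), so leaving out 1 library gave 0 to 1. Fitting only the groups compared gives no test of the difference between genotypes, *Fcer2a* did not pass filterByExpr, and DESeq2 gave no adjusted p to *Fcer2a* in 4 comparisons or to *Pax5* and *Spib* in control mice. The count over all genes in control mice, 350, was 1052 with DESeq2, 38 when only the 2 control groups were fitted, 14 at a threshold of 0.01, 0 with the immunoglobulin share as a covariate, 150 without the 2 libraries highest in epithelial markers, 545 with the run of columns as a term (both chosen after seeing the data) and 31 to 944 with 1 library left out. DESeq2 called 47 genes by time in knockout mice, 4 in the difference between genotypes, and 5 and 8 between genotypes at ZT0 and ZT12. In knockout mice by time, 1 gene was called with no count filter, with the immunoglobulin share or without the 2 epithelial libraries, and 0 to 1 with 1 library left out, as in the difference between genotypes. Between genotypes, leaving out 1 library gave 2 to 3 at ZT0 and 2 to 4 at ZT12. The replicate numbers are not stated to pair the mice, and the main fit did not pair them. The 28 same-numbered pairs correlated from -0.316 to 0.434, with 11 over 0.1. Differently numbered pairs were not compared, so these values cannot decide whether the numbers pair mice. With the number as a block, 183 genes were called in control mice.

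The fold changes below that turned sign were smaller than their SE in the main fit. They were not only those of the rarest genes, since *Bach2* (-0.30 in control mice, 1436 counts over all libraries) was among them. With the immunoglobulin share, the control values became 0.58 (*Pax5*), 0.026 (*Bach2*), -0.21 (*Bcl6*), 0.33 (*Ms4a1*) and 0.79 (*Fcer2a*), and the knockout *Cd22* value -0.015. With library size only, *Bcl6* in control mice was -0.22 and *Cd22* in knockout mice -0.026. With the replicate block these were -0.081 and -0.022, and *Ebf1* in knockout mice 0.019. With the run of columns as a term, *Bcl6* in control mice was -0.22 and *Cd22* in knockout mice -0.21. Without the 2 epithelial libraries, *Pax5* and *Bcl6* in control mice were 0.024 and -0.080, and *Ebf1* in knockout mice 0.032. With 1 library left out, control values ran from -1.01 to 0.071 (*Pax5*), -0.27 to 0.24 (*Bcl6*) and -0.068 to 0.52 (*Cd22*), and knockout values from -1.08 to 0.51 (*Pax5*), -0.22 to 0.36 (*Ebf1*), -0.87 to 0.55 (*Spib*) and -0.15 to 0.60 (*Cd22*). The causes were not tested. As a percent of the mean library, the summed level of the 9 genes in each group moved by less than 1 SD with CPM of counts outside immunoglobulin genes.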
